A study of Mus musculus with 18 samples.

Results

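Brown fat was compared with white fat over 12 of the 18 libraries of the series, taken by their tissue label: 6 libraries of brown fat and 6 of white fat. The remaining 6, from skeletal muscle, were not compared here. All animals were wild-type C57BL/6J mice on normal chow, without a transgene or deletion. Each fat was represented by 3 libraries from mice given the vehicle, 10% PEG400 in phosphate-buffered saline, and 3 from mice given 0.125 mg/kg quercetin, a plant flavonol, in that vehicle by oral gavage. The series describes the treatment as long-term. The labels name the tissues brown fat and white fat without a depot, and they state an age and a sex only for a lifespan experiment. The comparison asked which genes differ between the 2 tissues, with treatment as a covariate, and the same contrast was repeated in the vehicle libraries alone and in the quercetin libraries alone. Library titles carry an animal number in each arm, but no label says that the libraries are from separate animals or that a number joins a brown and a white library, so each p-value speaks only of the scatter among libraries.

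Brown and white adipocytes both store triglyceride, but brown adipocytes are packed with mitochondria and burn fuel for heat. Their inner mitochondrial membrane holds UCP1, which lets protons return to the matrix without making ATP, so that fatty acid oxidation and the respiratory chain run fast and release heat on noradrenergic demand. White adipocytes hold few mitochondria, release fatty acids to other tissues and secrete hormones such as leptin. The depots also arise from different parts of the embryo, and adult fat keeps a positional record in its Hox and other homeobox genes. Fat tissue further holds macrophages, fibroblasts, vessels and nerves, and some white depots enclose a lymph node.

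Each library held between 8436308 and 11323696 counts over genes in brown fat and between 8612506 and 10283073 in white fat, so depth differed little between the tissues. Levels are given as CPM, the usual unit of counts relative to library size, after TMM scaling (trimmed mean of M-values, which sets a common scale from genes of middling change). The summed level of 43 genes of the brown fat heat programme was 7569.5 to 26533 CPM (median 21649) in the brown libraries and 471 to 2788 CPM (median 739) in the white ones, as the tissue labels say. Markers of white adipocytes did not set the white libraries apart in the same way. Several libraries stood apart. Brown quercetin 3 had the lowest Ucp1 of the brown libraries (979.8 CPM) and the highest muscle actin Acta1 (10028 CPM), and brown quercetin 2 had almost none of the latter (1.43 CPM). White vehicle 2 had little adiponectin (Adipoq, 18.3 CPM, against 339 to 1184 in the other 5). White vehicle 1 and white quercetin 2 held almost no transcript of the B cell gene Ms4a1 (0 and 0.471 CPM), against 75.5 to 371 CPM in the other 4 white libraries. These same 2 libraries were the only fat libraries from flow cell H7GKJDSXX, and all others came from flow cell H7H2WDSXX, so flow cell and lymphocyte content cannot be told apart among the white libraries. In bulk tissue, fewer cells of a type and less RNA per cell cannot be told apart either.

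**Figure D1:**
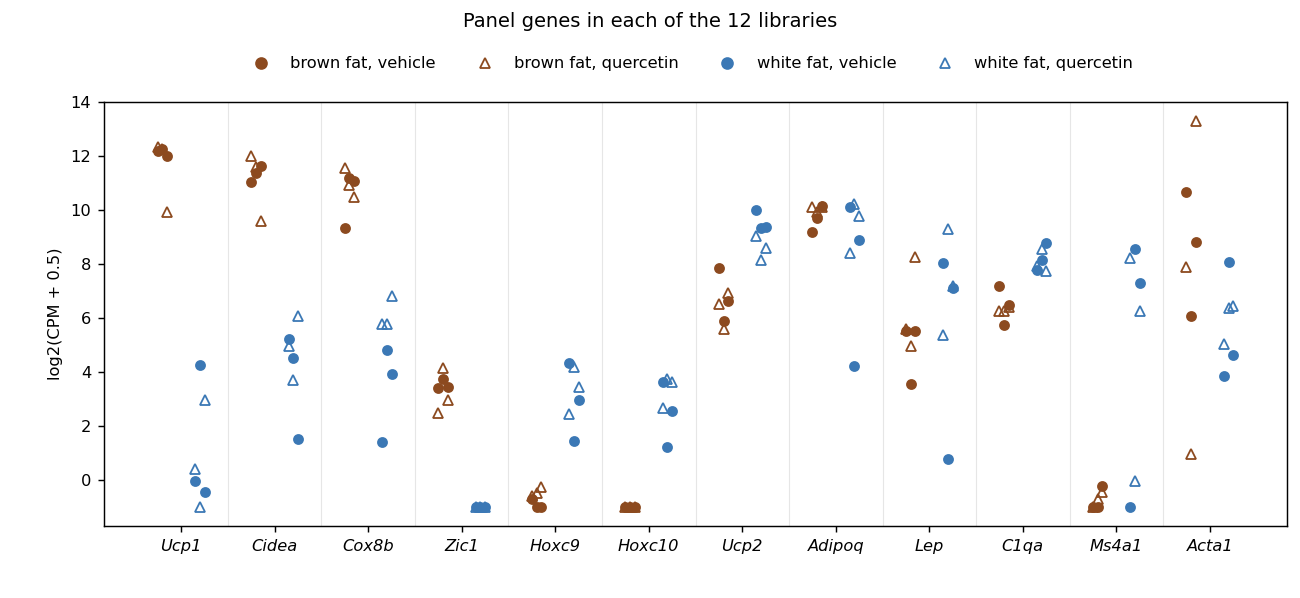
Levels of 12 genes in each of the 12 libraries, as log2(CPM + 0.5), with brown fat at the left and white fat at the right of each gene, vehicle as filled circles and quercetin as open triangles. Ucp1, Cidea, Cox8b and Zic1 lay above all white libraries in all 6 brown libraries, Hoxc9, Hoxc10, Ucp2 and C1qa lay below them, and Adipoq and Lep overlapped; 2 white libraries sat with the brown ones for Ms4a1.

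The tissues differed widely. Of 15249 genes tested, 2832 (18.6%) were higher in brown fat and 3223 (21.1%) in white fat by edgeR's quasi-likelihood F test at a Benjamini-Hochberg adjusted p under 0.05 (called edgeR adjusted p from here), 6055 (39.7%) in all. Calls within each gene list below are to be read beside these 18.6% and 21.1%. In 1395 genes (9.15%) every brown library lay above every white library, and in 702 (4.6%) every white library lay above every brown one. The split of calls depended on the test and on the scaling. Brown-high genes made up 46.8% of the calls with edgeR and 57.3% with limma voom (2686 against 2000), both on the TMM scale. With edgeR on library size alone they made up 17.9% (1436 against 6597). Library size alone moved the median log2 fold change of all genes by -0.64 from its TMM value of -0.09, so each change below is relative to the TMM scale. With any single library left out, between 4904 and 7319 genes were called.

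The vehicle and the quercetin libraries gave this contrast separately, with no library in common. In vehicle libraries 721 of 13672 genes (5.27%) were higher in brown fat and 286 (2.09%) in white fat, 7.37% in either. In quercetin libraries 826 (5.87%) and 518 (3.68%) of 14076 were called, 9.55% in either. Of the 13268 genes tested in both, 969 were called in the vehicle and 1225 in the quercetin libraries. Both arms called 543 of them, all in the same direction, which was 56.0% of the vehicle and 44.3% of the quercetin calls, with 462 higher in brown and 81 in white fat. Of the 969 vehicle calls, 968 had the same sign in the quercetin libraries, against 84.6% of all genes. Pearson's r of the log2 fold changes of the 2 arms was 0.879 across genes, which are not independent replicates. The split depended on the method here too: DESeq2 called 1695 brown-high and 1826 white-high genes in the vehicle arm and 1644 and 1504 in the quercetin arm, and edgeR on library size alone 486 and 760, and 471 and 2272. With 3 libraries against 3 these counts hung on single libraries. The vehicle fit called 5793 genes without white vehicle 1, 532 without brown vehicle 1, 7 without white vehicle 2 and 0 without white vehicle 3, brown vehicle 2 or brown vehicle 3. The quercetin fit called 2477 without white quercetin 2, 2048 without brown quercetin 3, 1 without white quercetin 3 and 0 without white quercetin 1, brown quercetin 1 or brown quercetin 2.

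Against white vehicle 1 and white quercetin 2 alone, the 6 brown libraries gave 645 brown-high (4.36%) and 472 white-high calls (3.19%) of 14791 genes. Of these, 624 brown-high (96.7%) but only 225 white-high calls (47.7%) were among the calls of the 12-library comparison, of which they were 22.0% and 6.98%. Against the other 4 white libraries, which share the flow cell of the brown ones, 3835 genes (24.8%) were higher in brown and 4241 (27.4%) in white fat of 15470. These held 91.7% of the brown-high and 96.7% of the white-high calls of the 12 libraries. The first of these comparisons crosses flow cells throughout and the second stays within one, and the number of white libraries differs between them.

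Among genes called in the 12 libraries and in the vehicle libraries, without overlap and with a mean of at least 20 CPM in the higher tissue, 529 were higher in brown fat and 111 in white fat. This rule needs a vehicle call by edgeR, of which 721 were brown-high and 286 white-high, against 1695 and 1826 with DESeq2. The split of 529 and 111 therefore depends on the method. The largest brown-high change was that of Lgr6, a receptor for R-spondins (GRCm38 chr1:134983301-135105276), with 6.99 to 130.1 CPM (median 67.4) in the brown and 0 to 0.0857 CPM (median 0.0382) in the white libraries. Its log2 fold change, brown minus white, was 10.21 ± 0.86 (SE, edgeR adjusted p = 2.80e-05). The white libraries held 3 counts of it in all, and the ratio of the tissues was 1506 with an exact 95% interval of 515 to 7306 that covers counting error only. Next came Ucp1 itself (chr8:83290352-83298452), with 979.8 to 5174 CPM (median 4765) in the brown and 0 to 18.5 CPM (median 0.653) in the white libraries and a log2 fold change of 9.94 ± 1.52, edgeR adjusted p = 0.00071. Brown quercetin 3, the lowest brown library, still lay far above white vehicle 2, the highest white one. Then followed Slc27a2, which activates very long fatty acids (8.62 ± 0.88), Gm10032, a predicted gene (8.30 ± 0.82), Kng2, a kininogen (8.13 ± 0.73), and Dio2, the deiodinase that makes active thyroid hormone inside brown adipocytes (7.92 ± 1.19). The other 6 of the 12 were Cpn2, a carboxypeptidase N subunit (7.75), Elovl3, which elongates very long fatty acids (7.69), Adprhl1 (7.56), the asparaginase Aspg (7.52), the cytochrome oxidase subunit Cox7a1 (7.41) and the cytochrome P450 Cyp2b10 (7.25). The edgeR adjusted p of these 12 lay between 2.80e-05 and 0.00071. All 12 were also called against the 2 white libraries without B cell transcripts alone, where 4.36% of all genes were brown-high. The 12 were chosen with these same libraries, so that count is no independent support.

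Of 44 genes listed for the thermogenic programme of brown fat, 43 were matched to the files and 41 tested, 35 were higher in brown fat and 1, the transcription factor gene Foxk1, in white fat (named after its values were seen; its call was lost without any of 7 libraries, all but white vehicle 1, white quercetin 2, brown vehicle 1 and brown quercetin 1 and 2), with a median log2 fold change of 4.27 against -0.09 over all genes. In 24 of them no brown and white library overlapped, beside 9.15% brown-high without overlap among all genes. Cidea, a droplet protein of brown adipocytes, held 762 to 4111 CPM (median 2863) in the brown and 2.34 to 66.3 CPM (median 26.6) in the white libraries, a log2 fold change of 6.59 ± 0.79, edgeR adjusted p = 0.000163. Letmd1, a mitochondrial protein needed for heat production in brown fat, held 209.8 to 1102 CPM (median 821) in the brown and 29 to 43.3 CPM (median 36) in the white libraries and differed by 4.42 ± 0.38, edgeR adjusted p = 2.82e-05. S100b, secreted by brown adipocytes and also a Schwann cell marker, differed by 5.52 ± 0.55, edgeR adjusted p = 5.12e-05. Fabp3, the heart-type fatty acid carrier, was at 600.0 to 1812 CPM (median 722) in the brown and 0 to 13.9 CPM (median 0.562) in the white libraries, with a difference of 8.93 ± 1.26, edgeR adjusted p = 0.000443; some 19.6% of its exon bases overlap another gene.

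Ppargc1a, the coactivator that drives mitochondrial genes, had 5.5 to 116 CPM (median 36.2) in the brown and 1.03 to 4.28 CPM (median 1.83) in the white libraries, and its log2 fold change was 4.12 ± 0.69, edgeR adjusted p = 0.00118. Ppara, a receptor for fatty acids, differed by 4.70 ± 1.11, edgeR adjusted p = 0.00642, but brown quercetin 3, at 1.83 CPM, lay within the white range of 0.257 to 9.57. The potassium channel gene Kcnk3 differed by 4.27 ± 0.85, edgeR adjusted p = 0.00278. It held 97.3 CPM in brown quercetin 3, below the 129 of white vehicle 1. Bmp8b, a signal from brown adipocytes to nerves and vessels, was low in brown fat and nearly absent from white fat (0 to 9.24 CPM against 0 to 0.0786), with a log2 fold change of 6.16 ± 1.13, edgeR adjusted p = 0.0019, and 2 counts over all white libraries (ratio 124, exact 95% interval 33.8 to 1032). Against the 2 white libraries without B cell transcripts 23 of 42 members were higher in brown fat and none in white, and without brown quercetin 3 the count over the 12 libraries was 36.

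Most respiratory chain transcripts were higher in brown fat. All 36 complex I subunits listed were tested, 35 were higher in brown fat and none in white. Those 35 were without overlap between the tissues, beside 9.15% brown-high without overlap among all genes. The log2 fold changes of the 36 ran from 0.58 to 3.37 with a median of 2.80, a narrow band beside the whole table. The vehicle arm alone called 34, the quercetin arm 35, and the 2 white libraries without B cell transcripts 34. Ndufb5, an accessory subunit, held 157 to 334 CPM (median 235) in the brown and 21.5 to 38 CPM (median 33.2) in the white libraries, a difference of 2.92 ± 0.21, edgeR adjusted p = 2.19e-05. Ndufa5 differed by 3.07 ± 0.24, Ndufs4 by 2.87 ± 0.22 and Ndufa3 by 2.59 ± 0.20, each with an edgeR adjusted p of 2.29e-05. No brown library reached down to the white range for any of these 4. Of 47 genes of complexes II to V, 43 were higher in brown fat and none in white, with a median of 2.99. Uqcrb of complex III differed by 3.10 ± 0.23, edgeR adjusted p = 2.29e-05, and Cox7b of complex IV, at 515 to 1215 CPM (median 817) in the brown and 76.5 to 125 CPM (median 84.4) in the white libraries, by 3.26 ± 0.25, edgeR adjusted p = 2.29e-05. The 4 that were not called were Cox4i2, Cox7a2l, Atp5g1 and Atpif1, the inhibitor of the ATP synthase (named after their values were seen). On library size alone 38 were higher in brown fat and 2 in white, and without brown quercetin 3, 41 and 2.

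Of the 15 genes of the mitochondrial genome, 9 were higher in brown fat and none in white, with a median of 2.52. Their summed level was 132680.0 to 244670.0 CPM (median 203890.0) in brown fat and 14429 to 43899 CPM (median 30081) in white fat. The ribosomal mt-Rnr2 held 3469 to 19133 CPM (median 5585) in the brown and 172 to 467 CPM (median 272) in the white libraries, a difference of 4.81 ± 0.49, edgeR adjusted p = 5.96e-05. Of the protein-coding genes, mt-Nd2 differed by 3.26 ± 0.39, edgeR adjusted p = 0.000169 and mt-Nd1 by 2.82 ± 0.39, edgeR adjusted p = 0.000416. The vehicle arm called 3 of the 15 and the quercetin arm 7.

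The start regions of these nuclear genes were searched for the binding letters of NRF1, a factor known for respiratory chain genes. RefSeq start regions of GRCm38.p6 were matched by symbol to 11014 of the tested genes, and the 250 bases before each start were read on both strands. The motifs searched do not contain one another. The NRF1 palindrome, GCGCA followed by its reverse complement, was present for 3 of 36 genes of complexes II to V (8.33%), 1 of 32 of complex I (3.12%), 2.38% of 2144 brown-high, 1.15% of 2265 white-high and 1.78% of all tested genes. It was present for 1 of 33 genes of fatty acid oxidation and 1 of 30 of the thermogenic list. Of 32 genes of the tricarboxylic acid cycle and 19 lymphocyte and lymph node genes, 0 had it. Among the respiratory chain genes named here Cox6a1 carried it, 162 bases before its start, and Ppara, Nnat and H2-DMa of the other genes named. Cox6a1, the general form of a cytochrome oxidase subunit, differed by 3.08 ± 0.37, edgeR adjusted p = 0.00016, and its upstream sequence is shown as a respiratory chain gene with the match. In the same search GAGGAAGT, letters bound by PU.1, a factor of macrophages and B cells, was present for 4.72% of white-high, 2.52% of brown-high and 3.18% of all tested genes. By list it was present for 0 of 19 lymphocyte and lymph node genes, 2 of 32 of complex I (6.25%) and 1 of 36 of complexes II to V (2.78%). The thermogenic list had it for 1 of 30 genes (3.33%), the cycle and fatty acid oxidation lists for 0. C1qc, a complement gene of macrophages described with the white-high genes, shows that match, and Ndufs4 shows the same letters before a gene that was higher in brown fat. Ndufa5, Elovl6 and Hoxc4 held them too. Genes had 1.27 starts on average in the brown-high and 1.28 in the white-high set. The letters TNAAGGTCA of estrogen-related receptors were present for 0.746% of brown-high, 1.02% of white-high and 0.835% of tested genes, and an NF-kappaB motif for 0.187%, 0.397% and 0.209%. The direct repeat of PPAR receptors, AGGTCA and AGGTCA with 1 base between them, was present for 1 brown-high and 1 white-high gene. Matches are letters in a window, not binding sites. Capitals mark the match in each sequence, which reads 5′ to 3′ on the gene's strand.
Cox6a1 (chr5:115348959-115349208, minus strand): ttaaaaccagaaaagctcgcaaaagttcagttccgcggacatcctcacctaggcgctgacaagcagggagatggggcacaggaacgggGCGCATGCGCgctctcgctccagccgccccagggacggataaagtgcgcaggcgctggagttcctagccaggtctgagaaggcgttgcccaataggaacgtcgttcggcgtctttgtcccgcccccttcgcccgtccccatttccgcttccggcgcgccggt
C1qc (chr4:136892915-136893164, minus strand): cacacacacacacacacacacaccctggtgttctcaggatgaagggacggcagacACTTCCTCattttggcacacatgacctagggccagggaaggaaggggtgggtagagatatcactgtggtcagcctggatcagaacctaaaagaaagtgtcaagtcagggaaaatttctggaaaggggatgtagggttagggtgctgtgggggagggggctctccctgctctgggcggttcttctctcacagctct
Ndufs4 (chr13:114388095-114388344, minus strand): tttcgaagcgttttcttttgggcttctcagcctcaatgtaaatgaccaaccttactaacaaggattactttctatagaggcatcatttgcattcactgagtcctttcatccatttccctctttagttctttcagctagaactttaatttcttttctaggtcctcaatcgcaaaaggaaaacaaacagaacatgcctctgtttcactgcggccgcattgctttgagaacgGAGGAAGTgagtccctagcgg

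Most transcripts of the pathways that feed the chain were higher in brown fat too. Of 37 genes of pyruvate entry and the tricarboxylic acid cycle, 36 were tested, 32 were higher in brown fat and 2 in white, with a median of 3.12. Idh3b, a subunit of the NAD-dependent isocitrate dehydrogenase, held 721 to 2386 CPM (median 1789.6) in the brown and 98.1 to 175 CPM (median 134) in the white libraries, a difference of 3.59 ± 0.34, edgeR adjusted p = 3.98e-05. Its partner Idh3g differed by 3.52 ± 0.34, and the succinate dehydrogenase subunits Sdhb and Sdhc by 3.47 ± 0.28 and 2.58 ± 0.24. The 2 white-high members were Pdk3, a kinase that shuts off pyruvate dehydrogenase, and the malic enzyme Me2, both named after their values were seen. Of 40 fatty acid oxidation genes 35 were higher in brown fat and none in white, with a median of 2.71. The thiolase Acaa2 held 968 to 4083 CPM (median 2482) in the brown and 63 to 123 CPM (median 69) in the white libraries, a difference of 4.83 ± 0.42, edgeR adjusted p = 3.07e-05. Hadha and Hadhb, the subunits of the trifunctional enzyme, differed by 3.97 ± 0.47 and 4.63 ± 0.51, and the dehydrogenase Acadl by 3.87 ± 0.48. In brown quercetin 3 these 4 genes were at 685 to 1068 CPM, still above all white libraries. Against the 2 white libraries without B cell transcripts, 18 of 40 oxidation genes and 24 of 36 cycle genes were higher in brown fat and none in white.

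**Figure D2:**
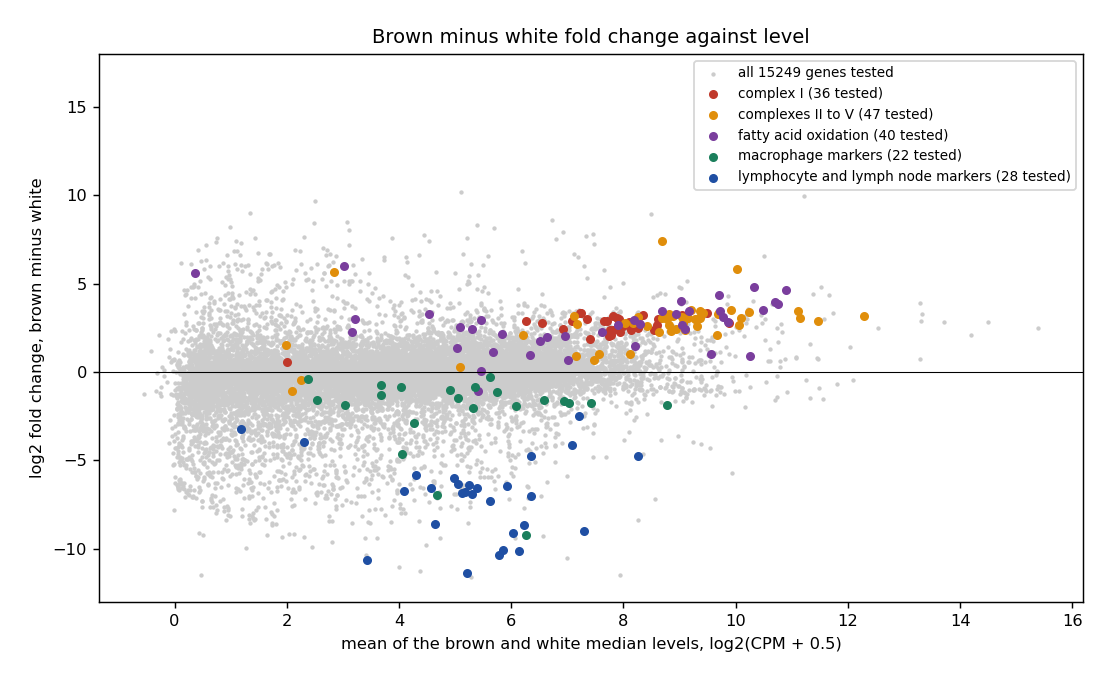
Log2 fold change, brown minus white, of each of the 15249 genes tested against the mean of its median levels in the 2 tissues, log2(CPM + 0.5). The 36 complex I genes lay in a band from 0.58 to 3.37 and the lymphocyte and lymph node markers from -11.39 to -2.51.

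Where a protein has several isoforms, the forms were not shifted alike, though the difference between forms was not tested. In cytochrome oxidase, the heart and muscle form Cox7a1 held 355 to 1334 CPM (median 822) in the brown and 0.359 to 14.4 CPM (median 2.95) in the white libraries and differed by 7.41 ± 0.86, edgeR adjusted p = 0.000142, while its general form Cox7a2 differed by 2.80 ± 0.23, edgeR adjusted p = 2.51e-05. Cox8b, at 641 to 3010.3 CPM (median 2033) in the brown and 2.15 to 112 CPM (median 40.7) in the white libraries, differed by 5.84 ± 0.74, edgeR adjusted p = 0.000237, and Cox8a by 2.11 ± 0.37. Cox4i1 was higher in brown fat by 2.65 ± 0.25, and its hypoxia form Cox4i2 had a log2 fold change of -0.44 ± 0.40 (edgeR adjusted p = 0.404). Cox6a2, a form of heart and muscle, had a log2 fold change of 5.67 ± 2.06, edgeR adjusted p = 0.046, with 0 to 681 CPM (median 12.7) in the brown and 0.314 to 9.85 CPM (median 0.673) in the white libraries. Its brown levels ran with the muscle genes: they were highest in brown quercetin 3 (681 CPM) and 0 in brown quercetin 2. The Cox6a2 call was lost on leaving out any of 8 libraries (white vehicle 1 and 3, white quercetin 1, 2 and 3, brown vehicle 1, brown quercetin 1 and 3), and its value was 3.12 without brown quercetin 3 (edgeR adjusted p = 0.0514). The part of muscle RNA in it was not tested.

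For carnitine palmitoyltransferase, the gate of fatty acids into mitochondria, the muscle form Cpt1b was at 2.63 to 24.1 CPM (median 15) in the brown and 0 to 0.718 CPM (median 0.161) in the white libraries, a difference of 5.97 ± 0.85, edgeR adjusted p = 0.000449, with 81.4% of its exon bases shared with another gene. The liver form Cpt1a pointed the other way, at -1.06 ± 0.55, edgeR adjusted p = 0.146. Its brown levels were 11.5 to 20.5 CPM in 5 libraries, below all white libraries (55 to 80.5), and 134 in brown vehicle 1. Without brown vehicle 1 the difference was -2.01 (edgeR adjusted p = 0.000117). Hexokinase 2, the insulin-responsive form, differed by 3.32 ± 0.40, edgeR adjusted p = 0.000169 and hexokinase 1 by 1.21 ± 0.25, edgeR adjusted p = 0.00315. The ADP/ATP carriers Slc25a4 and Slc25a5 differed by 2.32 ± 0.40 and 1.19 ± 0.27. Over the whole list of isoforms 21 of 26 tested genes were higher in brown fat and 1, Ucp2, in white.

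**Figure D3:**
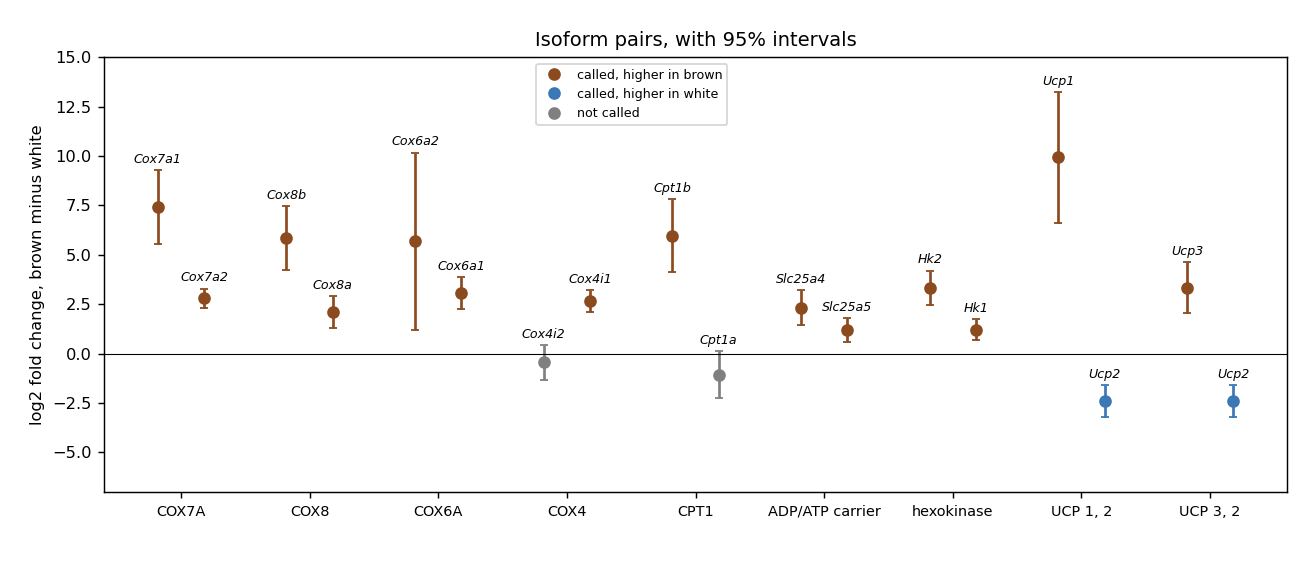
Log2 fold changes, brown minus white, of the forms of 9 protein pairs, with 95% confidence intervals. Cox7a1 (7.41) lay above Cox7a2 (2.80) and Cpt1b (5.97) above Cpt1a (-1.06, not called), and Ucp2 (-2.40) lay on the other side of 0 from Ucp1 and Ucp3.

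The 3 uncoupling proteins split. Ucp3, known from muscle, was at 69.9 to 203 CPM (median 128) in the brown and 2.83 to 41 CPM (median 9.48) in the white libraries and differed by 3.34 ± 0.60, edgeR adjusted p = 0.00166, the same direction as Ucp1. Ucp2, common in immune cells, was at 48 to 229 CPM (median 94.3) in the brown and 282 to 1011 CPM (median 589) in the white libraries, a difference of -2.40 ± 0.37, edgeR adjusted p = 0.000762, with no overlap. In the 2 white libraries without B cell transcripts Ucp2 stood at 1011 and 282 CPM, the highest and the lowest white value, and against them alone the difference was -2.43 (edgeR adjusted p = 0.0366). Of 20 mitochondrial carriers tested, 15 were higher in brown fat and Ucp2 alone in white. Slc25a20, the carnitine and acylcarnitine carrier, differed by 3.45 ± 0.46, edgeR adjusted p = 0.000316. Slc25a33, a pyrimidine nucleotide carrier, differed by 2.77 ± 0.32, Slc25a35 by 3.25 ± 0.41 and the oxoglutarate carrier Slc25a11 by 1.52 ± 0.22.

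Transcripts for glucose uptake and glycolysis followed. Of 29 such genes 22 were higher in brown fat and none in white, with a median of 2.58, and 10 were called against the 2 white libraries without B cell transcripts. Ugp2, which makes UDP-glucose for glycogen, held 245 to 423 CPM (median 322) in the brown and 34.9 to 65 CPM (median 43.8) in the white libraries, a difference of 2.76 ± 0.24, edgeR adjusted p = 2.82e-05. Ldhb, the heart form of lactate dehydrogenase, differed by 4.38 ± 0.46, edgeR adjusted p = 7.41e-05, Pgk1 by 2.30 ± 0.26 and Aldoa by 2.99 ± 0.35. Aldoa was highest in brown quercetin 3 (9016 CPM), the library with the most Acta1, although the other 5 brown libraries also lay above all white ones.

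Genes of fat synthesis gave fewer calls than those of glucose uptake and glycolysis. Of 28 genes of fatty acid and triglyceride synthesis tested, 16 were higher in brown fat and none in white, beside 18.6% and 21.1% of all genes. The other 12 were not called, and the median was 2.32. Of the 28, 3 were brown-high without overlap between the tissues, beside 9.15% of all genes. The 2 white libraries without B cell transcripts gave 2 brown-high and 1 white-high call of 29 tested, beside 4.36% and 3.19% of all genes. Elovl6, which elongates palmitate, held 373 to 1627 CPM (median 1022) in the brown and 4.31 to 126 CPM (median 25.8) in the white libraries, a difference of 4.76 ± 0.69, edgeR adjusted p = 0.000536. Tkt and Pgd, of the pentose phosphate pathway that supplies NADPH, differed by 3.21 ± 0.55 and 2.15 ± 0.35. Fasn, the fatty acid synthase, held 7728 to 39691 CPM in 5 brown libraries and 490.0 in brown vehicle 1, against 213 to 3633 in white fat. Its log2 fold change was 3.93 ± 0.87, edgeR adjusted p = 0.00483, and brown vehicle 1 lay inside the white range. Scd1, the desaturase, followed that pattern, at 4554 to 70683 CPM (median 31245) in the brown and 905 to 19781 CPM (median 6086) in the white libraries, and its 2.08 ± 0.82 was not past the threshold (edgeR adjusted p = 0.0624). Its call appeared without white vehicle 1 (2.99, edgeR adjusted p = 0.0087) or brown vehicle 1 (2.34, edgeR adjusted p = 0.0397).

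Genes that both adipocytes share gave few calls. Of 37 such genes 7 were higher in brown fat and none in white, beside 18.6% brown-high among all genes, with a median of 0.87. Adiponectin (Adipoq) held 583 to 1132 CPM (median 1037) in the brown and 18.3 to 1184 CPM (median 672) in the white libraries, a log2 fold change of 0.54 ± 0.64, edgeR adjusted p = 0.532. Perilipin 1 (Plin1) and Fabp4 had 0.93 ± 0.85 and 0.73 ± 0.71, with edgeR adjusted p of 0.406 and 0.444. Pparg, the master regulator of fat cells, had 1.72 ± 0.74, edgeR adjusted p = 0.0831, Cebpa 0.33 ± 0.57, edgeR adjusted p = 0.679, and the lipase gene Lipe 0.48 ± 0.75, edgeR adjusted p = 0.643. Among those that were called, the glycerol-3-phosphate dehydrogenase Gpd1 differed by 3.33 ± 0.74, edgeR adjusted p = 0.00465, the insulin-responsive glucose carrier Slc2a4 by 2.64 ± 0.61, Dgat2 by 2.86 ± 0.80 and Plin2 by 2.02 ± 0.58. The summed level of the list was 50142 to 67686 CPM (median 62523) in brown fat and 1862 to 105910.0 CPM (median 28753) in white fat, lowest in white vehicle 2 and highest in white vehicle 1. Without white vehicle 1, 19 of the list were higher in brown fat, among them Pparg (2.71), Fabp4 (1.69) and Lipe (1.65), not called over the 12 libraries (edgeR adjusted p = 0.00531, 0.0394 and 0.0396). Within flow cell H7H2WDSXX 25 of the 37 were higher in brown fat, and against the 2 white libraries of the other flow cell none was, and 2 were higher in white.

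Lipolysis and droplet genes lay between these groups, with a median of 0.97. Of 21 such genes 6 were higher in brown fat and none in white, beside 18.6% brown-high among all genes. Without white vehicle 1, 13 were higher in brown fat. Besides Cidea and Plin2 they included Prkaca, the catalytic subunit of protein kinase A (2.07 ± 0.29, edgeR adjusted p = 0.000388), and Plin3 and Plin5, droplet coats (2.06 ± 0.45 and 3.36 ± 0.92). Against the 2 white libraries without B cell transcripts, 2 were higher in brown and 2 in white fat. The adrenergic receptors, through which noradrenaline acts on fat cells, did not share a direction. Adra1a was at 22.6 to 109 CPM (median 81.6) in the brown and 0.6 to 11.9 CPM (median 5.24) in the white libraries, a difference of 3.78 ± 0.81, edgeR adjusted p = 0.0039, and Adrb1 differed by 2.60 ± 0.62, edgeR adjusted p = 0.00672. Adra2a, which opposes lipolysis, was at 0 to 1.83 CPM (median 0.355) in the brown and 0.12 to 12.2 CPM (median 5.78) in the white libraries and differed by -3.37 ± 0.97, edgeR adjusted p = 0.0172, but by -0.54 (edgeR adjusted p = 0.811) against the 2 white libraries without B cell transcripts. Adrb3, the main beta receptor of fat cells in mice, had 2.50 ± 1.19, edgeR adjusted p = 0.115, with 24.9% of its exon bases shared with another gene. It held 113 to 895 CPM in 5 brown libraries and 4.29 in brown vehicle 1, and in white fat it ranged from 8.97 in white vehicle 1 to 364 in white quercetin 2. Brown vehicle 1 and white vehicle 1, the lowest library of each tissue for Adrb3, carry the same animal number.

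Creatine and calcium cycling are discussed as routes to heat without UCP1. Of 15 such genes tested 7 were higher in brown fat and 2 in white, beside 18.6% and 21.1% of all genes. The white-high count was 1 on leaving out any library except white vehicle 1, white quercetin 2 and brown quercetin 3. Against the 2 white libraries without B cell transcripts none of 14 tested was called. Ryr2, a calcium release channel, held 0.687 to 14.9 CPM (median 6.21) in the brown and 0.535 to 1.81 CPM (median 0.719) in the white libraries, a difference of 2.83 ± 0.63, edgeR adjusted p = 0.00496. Atp2a3, a calcium pump of blood cells, was the more significant of the 2 white-high genes, at -3.01 ± 0.58, edgeR adjusted p = 0.00239. It overlapped, at 14.3 to 136 CPM in the brown and 52 to 641 CPM in the white libraries. White vehicle 1 was its highest white library and white quercetin 2 its lowest. Against these 2 libraries alone Atp2a3 stood at -2.50 (edgeR adjusted p = 0.0743). Sln, Atp2a1 and Ryr1, brown-high by 8.23 ± 2.17, 6.88 ± 1.84 and 4.92 ± 1.48, are also muscle genes and were highest in brown quercetin 3, at 204, 1412 and 478 CPM. Without that library Ryr1 was at 3.08 (edgeR adjusted p = 0.103) and without brown vehicle 1 at 4.15 (edgeR adjusted p = 0.0733). The creatine genes gave no call: Ckb, the brain-type creatine kinase, had 0.27 ± 0.28, edgeR adjusted p = 0.475, Gatm, the first enzyme of creatine synthesis, -0.84 ± 0.55, edgeR adjusted p = 0.245, the creatine carrier Slc6a8 1.19 ± 0.56, edgeR adjusted p = 0.113 and the mitochondrial creatine kinase Ckmt2 5.18 ± 3.18, edgeR adjusted p = 0.217. Ckmt2 was at 655 CPM in brown quercetin 3 and 0 to 18.2 in the other 5 brown libraries. Without white vehicle 2 it was called at 9.08 (edgeR adjusted p = 0.011), and without white vehicle 1 Ckb (0.54, edgeR adjusted p = 0.0421) and Slc6a8 (1.76, edgeR adjusted p = 0.015) were called.

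Over the 12 libraries, markers of white adipocytes did not mark the white libraries as a group. Of 25 tested, fewer were called than the 21.1% white-high and 18.6% brown-high of all genes. Among the 25, 2 were higher in white fat, 1 in brown, and the median was -0.74. Leptin (Lep), the satiety hormone, held 11.4 to 302 CPM (median 45.1) in the brown and 1.2 to 622 CPM (median 141) in the white libraries, a log2 fold change of -1.54 ± 1.0, edgeR adjusted p = 0.242. Nnat had -2.50 ± 1.01, edgeR adjusted p = 0.0688 and was called without white vehicle 2 (-2.89, edgeR adjusted p = 0.0212), resistin (Retn) had -0.46 ± 0.73, edgeR adjusted p = 0.649 and angiotensinogen (Agt) -0.13 ± 1.25, edgeR adjusted p = 0.947. White vehicle 2, with 1.2 CPM of Lep, was the lowest library of the 12 for Lep, Nnat, Retn and Agt, and brown quercetin 3, with 302 CPM of Lep, was the highest brown library for all 4. Apolipoprotein E (Apoe), which macrophages also make, was at 1106 to 2531 CPM (median 1552) in the brown and 3219.5 to 8848 CPM (median 4451) in the white libraries, a difference of -1.55 ± 0.36, edgeR adjusted p = 0.00568, without overlap. Vegfc, a lymphatic growth factor, differed by -1.13 ± 0.37, edgeR adjusted p = 0.0292, and its call was lost without white vehicle 3 (-1.04), white quercetin 3 (-1.07), brown vehicle 2 (-0.97) or brown vehicle 3 (-1.0). Fgf1 was higher in brown fat by 2.04 ± 0.40, edgeR adjusted p = 0.00249. Without white vehicle 2, 6 of the list were higher in white fat and 2 in brown. The white-high count was 1 without white vehicle 3, white quercetin 3, brown vehicle 2 or brown vehicle 3. The brown-high count was 2 without white vehicle 1 or white quercetin 2. Against the 2 white libraries without B cell transcripts 6 of 26 tested were higher in white and none in brown fat, with a median of -1.69. Among all genes 3.19% were white-high in that comparison.

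Of 29 secreted adipokines tested, fewer were called than the 18.6% and 21.1% of all genes: 4 were higher in brown fat and 1, Tnf, in white (named after its values were seen; its call was lost without white vehicle 2, white quercetin 1, brown vehicle 2, brown vehicle 3 or brown quercetin 2, and 2 were white-high without brown vehicle 1 or brown quercetin 3). Nampt, the enzyme and cytokine of NAD synthesis, was at 286 to 740.5 CPM (median 564) in the brown and 69.6 to 133 CPM (median 101) in the white libraries, a difference of 2.39 ± 0.30, edgeR adjusted p = 0.000221. Angptl8, an inhibitor of lipoprotein lipase, was at 16.9 to 78 CPM (median 43) in the brown and 0.771 to 10.7 CPM (median 3.29) in the white libraries and differed by 3.97 ± 0.52, edgeR adjusted p = 0.000274. Pm20d1, which makes N-acyl amino acids that uncouple mitochondria, differed by 4.45 ± 0.65, edgeR adjusted p = 0.000559, and Bmp8b by 6.16.

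Factors known for brown fat identity gave 3 brown-high and 2 white-high calls of 18 tested, not above the 18.6% and 21.1% of all genes. Zic1 (chr9:91358058-91365810), a zinc finger factor of the brown lineage, was at 5.09 to 17.2 CPM (median 10.3) in the brown libraries and had a count of 0 in all 6 white libraries, at least 250.4-fold higher with a floor of 3 counts over the white libraries (edgeR adjusted p = 0.000164). It was called in the vehicle arm (edgeR adjusted p = 0.017) and in the quercetin arm (edgeR adjusted p = 0.0232). Nfia, a factor that opens brown fat enhancers, was at 58.5 to 124 CPM (median 88.5) in the brown and 17.9 to 41 CPM (median 28.1) in the white libraries, a difference of 1.68 ± 0.27, edgeR adjusted p = 0.000977. Of the list 2 were brown-high without white vehicle 3, white quercetin 1, white quercetin 3, brown vehicle 1, brown vehicle 3 or brown quercetin 1. Prdm16, the coregulator of brown fat fate, had 1.43 ± 0.55, edgeR adjusted p = 0.0586, Ebf2 1.80 ± 0.73, edgeR adjusted p = 0.067, Lhx8 0.84 ± 0.54, edgeR adjusted p = 0.239 and Tbx15 0.70 ± 0.66, edgeR adjusted p = 0.431. For Prdm16 the brown range of 12.7 to 44.8 CPM met a white range of 3.23 to 34.6, with white vehicle 1 highest. Prdm16 and Ebf2 were called without white vehicle 1 (1.99 and 2.49), white quercetin 2 (1.78 and 2.26) or brown quercetin 3 (1.58 and 2.02), and Lhx8 without white vehicle 1 (1.55), where 7 of the list were higher in brown fat. The white-high members were Eya2 (-1.44 ± 0.43, edgeR adjusted p = 0.0198) and Epsti1 (-4.01 ± 1.21, edgeR adjusted p = 0.0208), an interferon-induced gene. Epsti1 was at 1.79 and 17.6 CPM in the 2 white libraries without B cell transcripts and 157 to 184 in the other 4, and against those 2 alone it stood at 0.28. Its call was lost without brown vehicle 2 (-3.84) or brown vehicle 3 (-3.90). On library size alone the median of the list turned from 0.44 to -0.23.

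Of 24 Hox genes tested 5 were higher in brown and 5 in white fat, near the 18.6% and 21.1% of all genes. These calls split by paralog number, though the split itself was not tested. Low paralog numbers are expressed towards the head and high numbers towards the tail. Of the 15 Hox genes with paralog numbers 1 to 5, 10 were tested, 5 were higher in brown fat and none in white. Of the 8 with numbers 6 to 8, all tested, 1 was higher in white fat and none in brown. Of the 16 with numbers 9 to 13, 6 were tested, 4 were higher in white fat and none in brown, and 10 had a count of 0 in all brown libraries, 5 of them in white fat too. Hoxc10 (chr15:102966796-102971893) had a count of 0 in all 6 brown libraries and 1.8 to 12.9 CPM (median 8.9) in white fat, at least 131-fold higher in white fat with a floor of 3 counts over the brown libraries (edgeR adjusted p = 0.000688). Hoxc9 was at 0 to 0.344 CPM (median 0.132) in the brown and 2.23 to 19.9 CPM (median 8.83) in the white libraries, a difference of -6.16 ± 0.77, edgeR adjusted p = 0.000214. Neither gene overlapped between the tissues, and both were called against the 2 white libraries without B cell transcripts (edgeR adjusted p = 0.0254 and 0.018). Hoxa10 differed by -4.81 ± 1.12, edgeR adjusted p = 0.00598, Hoxa9 by -3.19 ± 0.98, edgeR adjusted p = 0.0227 and Hoxb7 by -1.12 ± 0.34, edgeR adjusted p = 0.0221. The Hoxa9 call was lost without white vehicle 1 (-2.10) or brown vehicle 3 (-3.03), and the Hoxb7 call without white vehicle 3 (-1.05), white quercetin 3 (-1.09) or brown vehicle 2 (-1.02).

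On the brown side, Hoxa5 held 17.2 to 48 CPM (median 37.9) in the brown and 3.34 to 13.5 CPM (median 7.23) in the white libraries, a difference of 2.20 ± 0.37, edgeR adjusted p = 0.00126, and Hoxa4 differed by 2.26 ± 0.43, edgeR adjusted p = 0.00218, both without overlap. Hoxc4, Hoxc5 and Hoxa2 differed by 1.78 ± 0.57, 2.0 ± 0.66 and 1.16 ± 0.43, with edgeR adjusted p of 0.0265, 0.0322 and 0.0489, and overlapped between the tissues. The Hoxc4 call was lost without white vehicle 3 (1.73), white quercetin 3 (1.71), brown vehicle 3 (1.71) or brown quercetin 2 (1.71). The Hoxc5 call was lost without those 2 white libraries (1.81 and 2.01), white quercetin 1 (1.81), brown vehicle 2 (1.90), brown vehicle 3 (1.89) or brown quercetin 2 (1.75), and the Hoxa2 call on leaving out any library except white quercetin 2 and brown quercetin 2. In the 2 white libraries without B cell transcripts Hoxc4 was at 4.91 and 10.7 CPM and Hoxc5 at 5.62 and 12.8, and none of the 5 brown-high genes was called against these 2. On library size alone 2 Hox genes were higher in brown fat and 10 in white. Hoxc8 had -1.09 ± 0.51, edgeR adjusted p = 0.109 and was called without white vehicle 2 (-1.31, edgeR adjusted p = 0.0351).

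**Figure D4:**
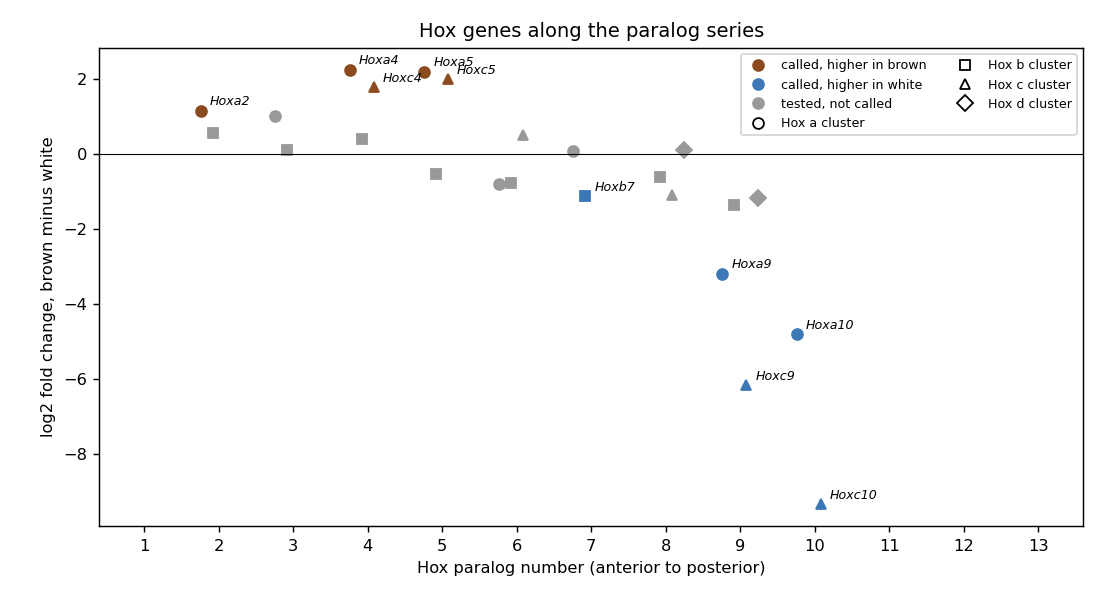
Log2 fold change, brown minus white, of the 24 tested Hox genes by paralog number, with the marker shape giving the cluster and the colour the call. The 5 brown-high genes have paralog numbers 2 to 5, and the 5 white-high genes 7 to 10, down to -9.35 for Hoxc10, whose fitted value depends on the prior count because brown fat is at 0.

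The list of positional factors and markers of white depots holds some of these Hox genes. It gave 11 white-high and 1 brown-high call of 21 tested, beside 21.1% and 18.6% of all genes, with a median of -1.09. Besides Hoxc9, Hoxc10, Hoxa9 and Hoxa10 the white-high ones included Tmem26 (-4.10 ± 0.73, edgeR adjusted p = 0.00165), a proposed marker of beige cells. The brown-high member was Tbx5, named after its values were seen, and no member was brown-high on leaving out any of 8 libraries, all but white vehicle 1 and 2, white quercetin 2 and brown quercetin 3. When only the 2 white libraries without B cell transcripts were used, 5 were higher in white and none in brown fat, beside 3.19% and 4.36% of all genes. Factors and markers of visceral fat were near 0: Tcf21 had no count in any of the 12 libraries, Wt1 reached 0.229 CPM in 1 brown library and was 0 elsewhere, and Upk3b, a mesothelial gene, stayed at or below 0.115 CPM. The 13 mesothelial markers summed to 3.72 to 11.6 CPM (median 7.86) in white fat and 5.73 to 11.7 CPM (median 6.72) in brown fat; 2 were tested and none called.

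Lymphocyte and lymph node genes had the lowest median of the 29 lists. Of 30 listed 28 were tested and all 28 were higher in white fat, beside 21.1% of all genes, with a median log2 fold change of -6.76. Members near 0 in brown fat could pass the count filter through the 4 white libraries with B cell transcripts alone. The count of 28 is therefore partly set by the filter. The vehicle arm tested 7 members and called 2, and the quercetin arm tested 18 and called 6. Of these 28, 2 were without overlap between the tissues, beside 4.6% white-high without overlap among all genes. Setting members with a count of 0 in brown fat to their bound left that median at -6.76. The list summed to 23.6 to 244 CPM (median 59.9) in brown fat. In white fat it summed to 142 and 369.9 CPM in white vehicle 1 and white quercetin 2, and to 3304 to 7302 in the other 4. Ms4a1, which encodes the B cell surface protein MS4A1 (chr19:11249675-11266241), differed by -10.09 ± 1.94, edgeR adjusted p = 0.00235, and the T cell genes Cd4 and Cd3e by -6.84 ± 1.25 and -6.73 ± 1.25. Cd3e was at 0.359 and 0.55 CPM in those 2 white libraries, near the brown range of 0 to 0.488. Glycam1, a gene of lymph node vessels named after its values were seen, had a count of 0 in all brown libraries and reached 49.9 CPM in white fat. Against the 2 white libraries none of the 14 members that could be tested was called, and the median was -0.33. All 7 MHC class II genes, which present antigen, were called as higher in white fat too, with Cd74 at 19 to 123 CPM (median 81.8) in the brown and 34.6 to 2897 CPM (median 1407) in the white libraries and a difference of -4.28 ± 0.90, edgeR adjusted p = 0.00362, and none was called against those 2 libraries, where Cd74 stood at -0.90. H2-Ab1 differed by -4.05 ± 0.82, H2-DMa by -4.50 ± 0.88 and their activator Ciita by -5.92 ± 1.13.

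The 12 white-high genes of largest change that the naming rule took were Lck, a T cell kinase (-6.48 ± 1.05, edgeR adjusted p = 0.000999), Fcho1 (-5.67), the lymphocyte phosphatase Ptpn22 (-5.58), the predicted gene Gm15675 (-5.37), Gpr132 (-5.27), the lymphoid factor Ikzf1 (-5.12), Parvg, a parvin of blood cells (-4.45), Rasgef1b (-4.29), Rhof (-3.72), the replication licensing gene Cdt1 (-3.70), Def6 (-3.68) and Cd55, which shields cells from complement (-3.56). Although none overlapped between the tissues, Lck was at 7.3 and 2.99 CPM in the 2 white libraries without B cell transcripts and 96.8 to 186 in the other 4, above a brown range of 0.331 to 2.52. Against these 2 libraries 2 of the 12 were called, Gm15675 (-3.63, edgeR adjusted p = 0.029) and Cd55 (-2.54, edgeR adjusted p = 0.0418). Cd55 held 2.21 to 13.5 CPM (median 4.77) in the brown and 36.4 to 136 CPM (median 79.8) in the white libraries.

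Macrophage genes were higher in white fat in all 6 libraries for several members. Of 22 markers 12 were higher in white fat and none in brown, with a median of -1.61, beside 21.1% white-high among all genes. Without overlap were 5 of the 22, beside 4.6% white-high without overlap among all genes. C1qa and C1qc, chains of complement C1q, were at 53 to 145 CPM (median 79.7) in the brown and 213 to 437 CPM (median 263) in the white libraries for C1qa and differed by -1.77 ± 0.28, edgeR adjusted p = 0.000839 and -1.78 ± 0.33, edgeR adjusted p = 0.00192. Csf1r, the receptor for macrophage growth factor, differed by -1.95 ± 0.40, edgeR adjusted p = 0.00318. Against the 2 white libraries without B cell transcripts C1qa stood at -1.79 (edgeR adjusted p = 0.0333), C1qc at -2.03 (edgeR adjusted p = 0.0386) and Csf1r at -1.93 (edgeR adjusted p = 0.085), and 3 of 21 members were called. Marco and Timd4, receptors of resident macrophages, were low in the same 2 libraries, with Marco at 0.236 and 2.03 CPM in those 2 and 131 to 265 in the other 4. The summed level of the list was 390.2 to 1772 CPM (median 629.6) in brown and 1574 to 3951 CPM (median 2599) in white fat, and brown vehicle 1, the highest brown library, lay above the lowest white one. On library size alone 15 of the 22 were higher in white fat.

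Of 22 fibroblast and progenitor genes 5 were higher in white fat, a share near the 21.1% of all genes, and none in brown, with a median of -0.91 and 12 white-high calls on library size alone. The count was 3 without white vehicle 3, white quercetin 2, brown vehicle 2, brown quercetin 1 or brown quercetin 2. Dpp4, a marker of adipose progenitors that T cells also carry, differed by -4.05 ± 0.75, edgeR adjusted p = 0.00199 and Icam1 by -1.99 ± 0.37, edgeR adjusted p = 0.00211. Col1a2, a collagen chain, differed by -1.64 ± 0.56, edgeR adjusted p = 0.0355, and was not called without white vehicle 3 (-1.40), white quercetin 2 (-0.93), brown vehicle 2 (-1.50) or any of the 3 brown quercetin libraries (-1.54, -1.60 and -1.59). Of 19 endothelial and mural genes, fewer were called than the 18.6% brown-high and 21.1% white-high of all genes. Of these 19, Rgs5, of pericytes, was higher in brown fat (1.57 ± 0.40, edgeR adjusted p = 0.00941) and Lyve1, of lymph vessels and macrophages, in white (-3.32 ± 0.73, edgeR adjusted p = 0.00456). Without white vehicle 1, 6 were higher in brown and 2 in white fat. Of 15 nerve and Schwann cell genes, S100b was higher in brown fat, and Ngfr (-2.96 ± 0.58, edgeR adjusted p = 0.00249), Cnp (-2.60 ± 0.53, edgeR adjusted p = 0.00319) and Mag (-2.25 ± 0.72, edgeR adjusted p = 0.0273) in white. The white-high share was near the 21.1% of all genes, and the brown-high share below their 18.6%. The Mag call was lost without any of 5 libraries, with values of -2.03 (white vehicle 3), -2.16 (brown vehicle 1), -2.12 (brown vehicle 2), -2.26 (brown quercetin 1) and -2.15 (brown quercetin 2). Of 2 epithelial genes tested Epcam was higher in white fat (-7.67 ± 1.46, edgeR adjusted p = 0.00227), with 1 count over all brown libraries (ratio 334, exact 95% interval 59.7 to 13217). It was at 0 and 0.236 CPM in the 2 white libraries without B cell transcripts. None of 6 red blood cell genes was called, and without white vehicle 1, 2 were higher in brown fat.

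Calls of muscle genes depended on single libraries. Of 21 tested 8 were higher in brown fat and none in white, with a median of 4.92, and neither arm alone called any. The 25 listed summed to 155 to 55041 CPM (median 2630.5) in brown fat, highest in brown quercetin 3 and lowest in brown quercetin 2, and to 107 to 1936 CPM (median 228) in white fat, highest in white vehicle 2. Acta1 had 4.25 ± 1.64, edgeR adjusted p = 0.0581 and was called without white vehicle 2 (5.47) or brown quercetin 2 (4.43). The myosin Myh1 differed by 7.56 ± 2.12, edgeR adjusted p = 0.0151 and nebulin (Neb) by 4.56 ± 1.35, edgeR adjusted p = 0.0195. Myh1 was not called without brown vehicle 1 (7.67), and Neb not without brown vehicle 1 (3.87) or brown quercetin 3 (2.87). Of the list 5 were called without brown quercetin 3 or white quercetin 3, 2 without brown vehicle 1 and all 21 without white vehicle 2, all higher in brown fat.

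**Figure D5:**
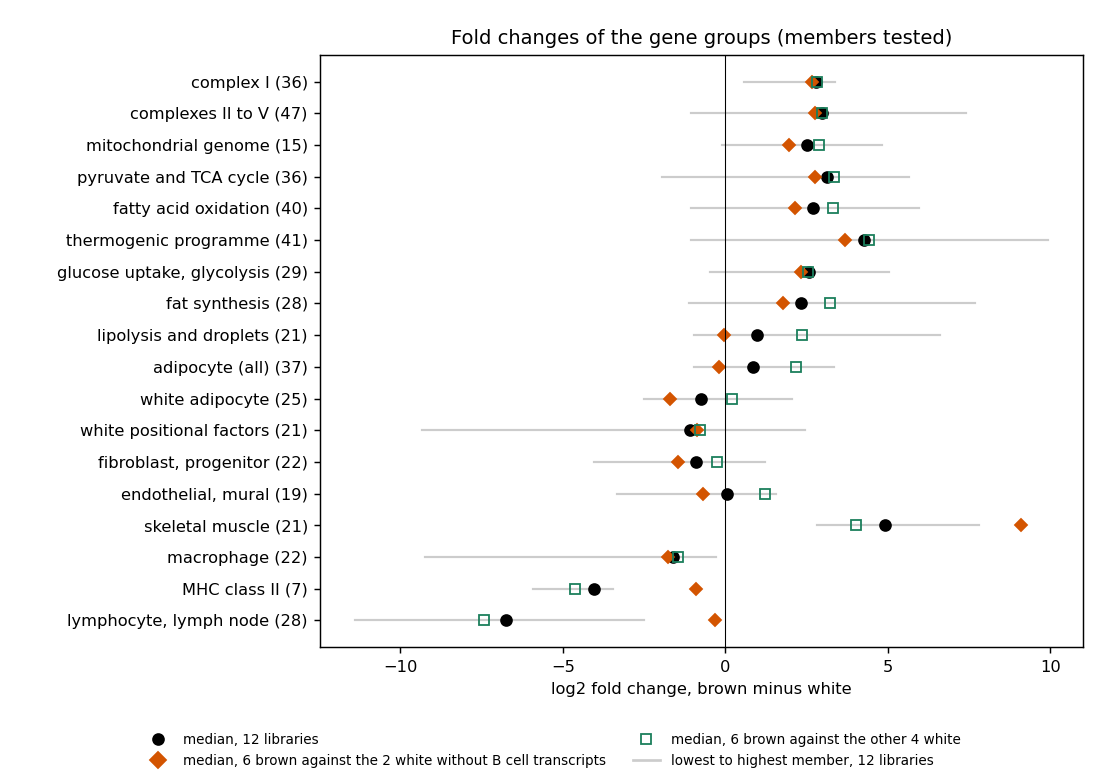
Median log2 fold change, brown minus white, of 18 gene groups over the 12 libraries (black), against the 2 white libraries without B cell transcripts (orange) and against the other 4 white libraries (green), with grey lines from the lowest to the highest member. Mitochondrial groups kept medians between 1.95 and 3.35 in all 3 comparisons, while the lymphocyte group moved from -6.76 to -0.33 against the 2 libraries.

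Whether the difference between the tissues itself changed with quercetin was tested as an interaction over the 12 libraries. None of 15769 genes was called by edgeR (0.0%, smallest adjusted p 1.0), 109 (0.691%) had an unadjusted p under 0.05, and DESeq2 called 5. The 5 were Art1, Myf6, Trdn, Trim54 and Xirp2, all muscle genes, at 0 in brown quercetin 2 and highest in brown quercetin 3. The 5 genes with the smallest edgeR p, none past the threshold, were Cd200, A830018L16Rik, Angptl8, 9230116N13Rik and Oscar. For Angptl8 the log2 fold change between tissues was 5.17 in the vehicle and 2.81 in the quercetin libraries, a difference of -2.32 ± 0.67 (SE) with an unadjusted p of 0.00531. White fat held 0.771 to 1.2 CPM of it with vehicle and 5.38 to 10.7 with quercetin, and brown fat 16.9 to 48 and 32.6 to 78. With 3 libraries a group these intervals are wide, and a p that misses the threshold does not show that the tissues responded alike.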

How the data were processed

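RNA-seq read counts per gene from 12 libraries were used. The deposited counts are raw, with HISAT2, HTSeq and DESeq2 and the build mm10 listed in the submitters' processing notes; no version, annotation release or counting strand was stated. Each file held 53465 genes by Ensembl identifier, of which 53360 had a symbol in GENCODE's annotation of GRCm38, and 5 summary lines per file (reads without a gene) were left out. Without strand, reads of overlapping or antisense genes cannot be told apart. The lines left out held 2.91 to 5.86% of reads without a feature in brown and 5.43 to 9.11% in white fat, and 7.33 to 8.59% and 6.47 to 7.61% of ambiguous reads.

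Genes were kept with filterByExpr (count 10, total 15), scaled with TMM and tested with edgeR 4.0.16 in R 4.3.3 (quasi-likelihood F test, Benjamini-Hochberg adjusted p under 0.05), tissue plus treatment over 12 libraries, and tissue alone within an arm. The alternatives used DESeq2 1.42.0, limma 3.58.1 voom, other scalings and filters, a 2-fold threshold, single libraries left out, a block for the animal number, and subsets of white libraries; the subset of 2 white libraries and the block within an arm were chosen after seeing the data. On simulated counts edgeR recovered 52% of 4-fold and 89% of 16-fold changes over the 12 libraries (2 false calls of 15249 genes), and 9% and 69% in the vehicle arm (4 false calls of 13672). DESeq2 made 49 and 73 false calls there. The simulation changed 100 genes at each fold, while 39.7% of genes were called in the data. It drew each count independently, without whole libraries that stand apart, so these rates may not hold for the data.

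The genes named were the 12 of each direction with the largest change among those called over the 12 libraries and in the vehicle arm, without overlap and with a mean of at least 20 CPM in the higher tissue, up to 4 of the smallest p in each of 29 lists, a panel of 60 genes, and Hox genes by paralog number. Members and lists were chosen with earlier results of these data known. No pair of libraries of a group agreed within counting error. Some genes of the lists are counted but not reported by name here.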

Additional observations from a re-analysis of the deposited data

Results flagged for a closer look

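The mean level of each gene list, as log2(CPM + 0.5), was tested for a single library far from the other 5 of its tissue with Dixon's test. Of 58 such tests 8 found one, and chance gives about 1 in 20. Brown quercetin 3 was the library in 5 of the 8. It was low for the thermogenic genes, at 5.06, where the other brown libraries lay between 6.79 and 7.09, and for fatty acid oxidation, at 6.72 against 8.02 to 8.42. Its lipolysis and droplet genes were at 7.22 against 7.71 to 7.99. It was high for lymphocyte and lymph node genes, at 1.13 against -0.10 to 0.33, and for nerve and Schwann cell genes, at 3.56 against 2.09 to 2.64. The same library had the highest muscle transcripts, whose part in these values was not tested.

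White vehicle 2 was high among the white libraries for creatine and calcium cycling genes, at 3.65 against 2.37 to 2.84. Brown quercetin 2 was low for red blood cell genes, at 2.04 against 2.67 to 2.85. Brown vehicle 2 was low for the Hox genes, at 0.74 against 0.96 to 1.01.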

How the results depend on the processing

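Over the 12 libraries 6055 genes were called, and the count changed by over 1.5 times with limma voom (2000 white-high), library size alone (1436 brown-high and 6597 white-high), a 2-fold threshold (2412, of which 1045 and 1367), voom with library weights (10629, of which 5164 and 5465) and without the 4 white libraries with B cell transcripts (1117, of which 645 and 472). Leaving out 1 library gave 4904 to 7319 calls, 2306 to 3369 brown-high and 2577 to 3950 white-high. The vehicle arm gave 3521 calls with DESeq2 (1695 and 1826), 171 at 2-fold (160 and 11) and 5793 within flow cell H7H2WDSXX (2586 and 3207, the fit without white vehicle 1). Its white-high count was 162 with voom, 760 on library size, 602 without a filter and 166 at a mean of at least 1 CPM. The quercetin arm gave 3148 with DESeq2 (1644 and 1504), 707 with voom (133 white-high), 2743 on library size (471 and 2272), 973 white-high without a filter, 619 at a mean of at least 1 CPM (494 and 125) and 55 at 2-fold (46 and 9). Leaving out 1 library gave 0 to 5793 calls in the vehicle arm (0 to 2586 brown-high, 0 to 3207 white-high) and 0 to 2477 in the quercetin arm (0 to 1270 and 0 to 1671). DESeq2 called 5 interactions, and leaving out any library with edgeR gave 0.

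The animal number as a replicate block left 5432 calls over the 12 libraries (2608 and 2824), 0 in the vehicle arm (0 and 0), 16 in the quercetin arm (9 and 7) and 0 interactions. Same-numbered brown and white libraries correlated in their deviations from the group means at -0.13 to 0.19, and 2 of 6 correlated best with their own number. With 3 libraries a group this cannot decide whether a number joins libraries of the same animal. The numbers were not taken as pairing because no label states it.

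Of 158 named genes, 134 were called and 64 kept that call in every setting. Signs turned for 11 genes, 1 of them called: Epsti1 (0.28 without the 4 white libraries). That setting also gave Lhx8 -0.087, Adipoq -0.29, Plin1 -0.19, Fabp4 -0.26, Cebpa -0.64, Lipe -0.78, Cox4i2 0.31 and Ckb -0.29. Library size alone gave Adipoq -0.023, Cebpa -0.27, Lipe -0.047 and Ckb -0.32. Tbx15 was at -0.31 with library weights, -0.54 without white vehicle 2 and brown quercetin 3 together and -0.30 without brown quercetin 3, the lowest of a leave-one-out range up to 0.94. Agt ranged from -1.29 to 0.58 on leaving out 1 library, above 0 without white vehicle 1 (0.58), white quercetin 2 (0.57), brown vehicle 2 (0.25), brown quercetin 1 (0.029) or brown quercetin 2 (0.025), and was at 0.80 with voom, 0.35 with the replicate block and 1.64 within the flow cell. The cause of these changes was not tested. With 8436308 to 11323696 counts a library, genes under the count filter were not tested.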
